A study of Chlamydomonas reinhardtii with 25 samples.

Results

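The response of Chlamydomonas reinhardtii to an equimolar mixture of cerium (Ce), thulium (Tm) and yttrium (Y) was described across all genes by setting 5 RNA sequencing libraries of the mixture (Mix) against 5 unexposed controls. These are 10 of the 25 libraries of a study that also exposed cells to each metal alone. The alga is a unicellular green flagellate of the wild-type strain CC-125, harvested in mid-exponential growth. Mix cells spent 2 h with the 3 metals in a medium of calcium nitrate (10.0 µM) buffered to pH 7.0 by NaHEPES (10.0 mM), and control cells in the same medium without metal. The Ce, Tm and Y groups, with 5 libraries each, received 1 metal at 0.5 µM. The labels give 0.5 µM for the mixture too and do not specify if it is summed over the metals or applies to each one. All groups had been grown at 20 °C with 12 h of light per day in diluted acetate medium and washed before exposure, so controls carry the wash and the transfer as well. The labels call the 5 libraries of a group replicates without saying that they came from separate cultures, so p-values measure only the spread between these samples, which may be technical.

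Cerium is a light rare earth element, thulium a heavy one, and yttrium is usually grouped with the heavy ones. As trivalent ions of a size near that of calcium, they are known to bind calcium sites. Chlamydomonas takes up inorganic carbon with an inducible carbon-concentrating mechanism, in which transporters and carbonic anhydrases supply CO2 to Rubisco in the pyrenoid of its single chloroplast. Genes of this mechanism, of nutrient uptake and of chloroplast chaperones are known to respond to conditions within hours.

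The deposited values are read counts per annotated transcript line, called genes here. Total counts per library ran from 18050723 to 22471637 in Mix and from 16243319 to 28974088 in controls. Levels are given as CPM, counts scaled to the TMM-adjusted library total, and changes as log2 fold changes, Mix minus control, with their standard errors (SE). CPM measure the share of a transcript in the RNA of a sample, so a change in the whole RNA content of cells would not be seen, and fewer cells that express a gene and less RNA per cell cannot be told apart. Genes with a Benjamini-Hochberg adjusted p under 0.05 in edgeR's quasi-likelihood test across all 25 libraries are those said to have risen or fallen.

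Of 12796 genes with enough counts, 3951 (30.9%) rose and 4803 (37.5%) fell in Mix, together 68.4%. Changes of at least 2-fold were seen in 1997 genes that rose (15.6%) and 3223 that fell (25.2%), and changes of at least 8-fold in 100 that rose and 238 that fell. The CPM of all 5 Mix libraries lay above all 5 controls for 21.2% of genes and below them for 23% of genes. The median change over all tested genes was -0.13. The split between rises and falls depended on the scaling: with control library 1 as the TMM reference 4980 genes rose and 3870 fell, and the median over all genes was 0.11, a shift of 0.24 against which small changes are to be read. The first principal component of these 10 libraries, with 69.4% of the variance, placed all Mix libraries on one side and all controls on the other. Mix libraries spread less than control libraries, with a biological coefficient of variation of 17.13% in Mix and 32.09% in controls. The test pools the spread of all groups, and with Mix and control libraries alone 3082 of 11081 genes rose and 3975 fell. The second component spread the controls, from 72.755 for control library 1 to -56.603 for control library 4. Without control library 1, 4204 genes rose and 4623 fell. Without control library 4, 3988 rose and 4864 fell.

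Among weakly expressed genes falls outnumbered rises under the main scaling with all controls. Of the 3199 genes with the lowest levels, up to 1.21 CPM on average, 15% rose and 32.7% fell, with a median change of -0.41. Of the 3199 with the highest levels, from 29.8 CPM, 41.2% rose and 38.6% fell, with a median of 0.09. These shares by level were not counted under other settings. The median over all genes was 0.11 with control library 1 as the TMM reference and -0.04 without that library. The plot of fold change by level shows the wide cloud of called genes on both sides of 0.

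Known loci were identified by gene ID. Neither the deposited table nor the reference pairs IDs with gene names, so the names used here are those of the published locus assignments of the genome's version 5.5 as generally known, and no sequence was at hand to check them. Some loci stood lower than genes of that name would be thought to (TPI1, Cre01g029300, at 27.1 CPM in Mix and 16.3 CPM in controls), so a line may hold only part of a gene's reads and levels are not compared between genes. The 28 lists hold 240 loci, of which 61 had no line with the same ID in the table and 11 had too few counts. For 22 of the 61 the table holds a line whose ID is the listed one with 1 more digit; whether these are the same loci is not stated, and they were left unmatched, so a listed member that was not tested may still be in the table. Of the 168 tested, 70 rose and 63 fell, with a median change of 0.11 against -0.13 over all genes. Since 68.4% of all genes were called, a list with about that share of calls says little by its count, and the direction and the size of the changes carry more. The plot by list shows each tested member.

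**Figure D1:**
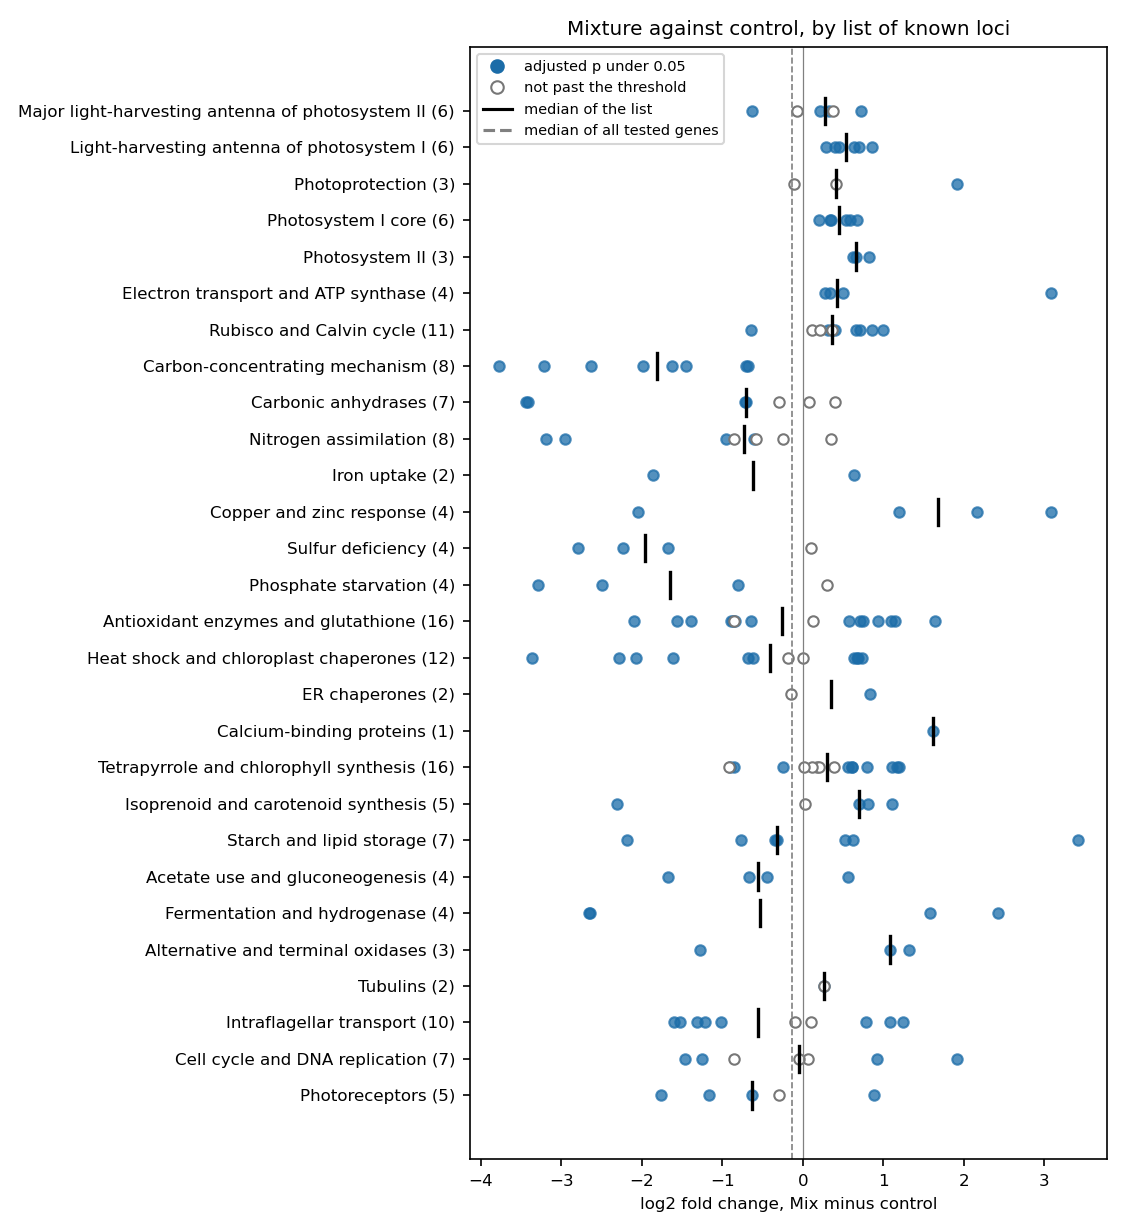
Each point is a tested locus of the list named at the left, with the number tested in brackets, placed by its log2 fold change, Mix minus control. Filled points passed an adjusted p of 0.05; black ticks are list medians and the dashed line is the median of all tested genes, -0.13. The carbon-concentrating, sulfur and phosphate lists have medians of -1.81, -1.95 and -1.65.

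Genes of the carbon-concentrating mechanism fell. All 8 tested of 12 listed members were lower in Mix, against 37.5% of all genes, with a median change of -1.81. Of the 8, 6 fell at least 2-fold, against 25.2% of all genes. HLA3 (Cre02g097800), a bicarbonate transporter of the plasma membrane, had 890, 1496, 958, 1583 and 1049 CPM in Mix and 4096, 9879, 7296, 10034 and 5650 CPM in controls. Every Mix library was below every control, and the mean was 6.18-fold lower (log2 fold change -2.63, SE 0.24, edgeR adjusted p = 8.55e-11). LCIA (Cre06g309000), which carries bicarbonate across the chloroplast envelope, had 543 to 793 CPM in Mix and 1132 to 2754 CPM in controls, a change of -1.63 (SE 0.18). The groups did not overlap for this gene either.

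The largest fall of the list was that of CCP1 (Cre04g223300), a carrier protein induced at low CO2. It had 4.12, 3.71, 2.19, 3.79 and 2.65 CPM in Mix and 31.1, 69.3, 45.7, 53.2 and 27.2 CPM in controls. This is a 13.7-fold lower level (log2 fold change -3.78, SE 0.30), although CCP1 has a near-identical neighbour, CCP2, between which reads could be split. LCI1 (Cre03g162800), another inorganic carbon transporter, was at 11 to 18.3 CPM in Mix and 88 to 190 CPM in controls (-3.21, SE 0.20). BST1 (Cre16g662600), a thylakoid channel of the bestrophin family, fell by 1.99 on the log2 scale (SE 0.18). The smallest falls were those of LCIB and BST3. LCIB (Cre10g452800), a protein around the pyrenoid, averaged 8961 ± 823 CPM in Mix and 14401 ± 3147 CPM in controls (SD, n = 5 each), and BST3 (Cre16g663450) averaged 1692 ± 209 CPM in Mix and 2749 ± 876 CPM in controls. For both, control library 1 alone lay within the range of Mix; it was also the lowest control for HLA3, LCIA, LCI1 and BST1. Without control library 1 all 8 members still fell, with a median of -1.96, and with it as the TMM reference all 8 fell too, with a median of -1.52.

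Carbonic anhydrases, which interconvert CO2 and bicarbonate, fell in part. Of 7 tested, 4 fell and none (0) rose, against 37.5% of all genes that fell. Without control library 1, 5 fell and 1 rose, the rise being that of CAH7 (Cre13g607350, 0.40 with all libraries and 0.91 without that one); with control library 1 as the TMM reference 4 fell and CAH3 rose (0.35). CAH4 (Cre05g248400), a mitochondrial enzyme, had 2.92, 4.07, 2.19, 3.95 and 1.75 CPM in Mix and 21.4, 48, 26.9, 43 and 23.1 CPM in controls, 10.9-fold lower with no overlap (log2 fold change -3.44, SE 0.30, edgeR adjusted p = 3.21e-11). Its near-identical neighbour CAH5 (Cre05g248450) fell by 3.42 on the log2 scale; reads of this pair may be shared. CAH1 (Cre04g223100), the periplasmic enzyme induced at low CO2, fell much less, to 18.5 ± 2.63 CPM in Mix against 30.1 ± 6.28 CPM in controls (-0.70, SE 0.17). CAH3 (Cre09g415700), the enzyme of the thylakoid lumen, averaged 376 CPM in Mix and 356 CPM in controls and did not pass the test (0.08, adjusted p = 0.483), and CAH6 (Cre12g485050) averaged 59.4 CPM in Mix and 73.2 CPM in controls (-0.30, adjusted p = 0.0661), a difference that passed without Mix library 3 (-0.38) or control library 1 (-0.43).

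**Figure D2:**
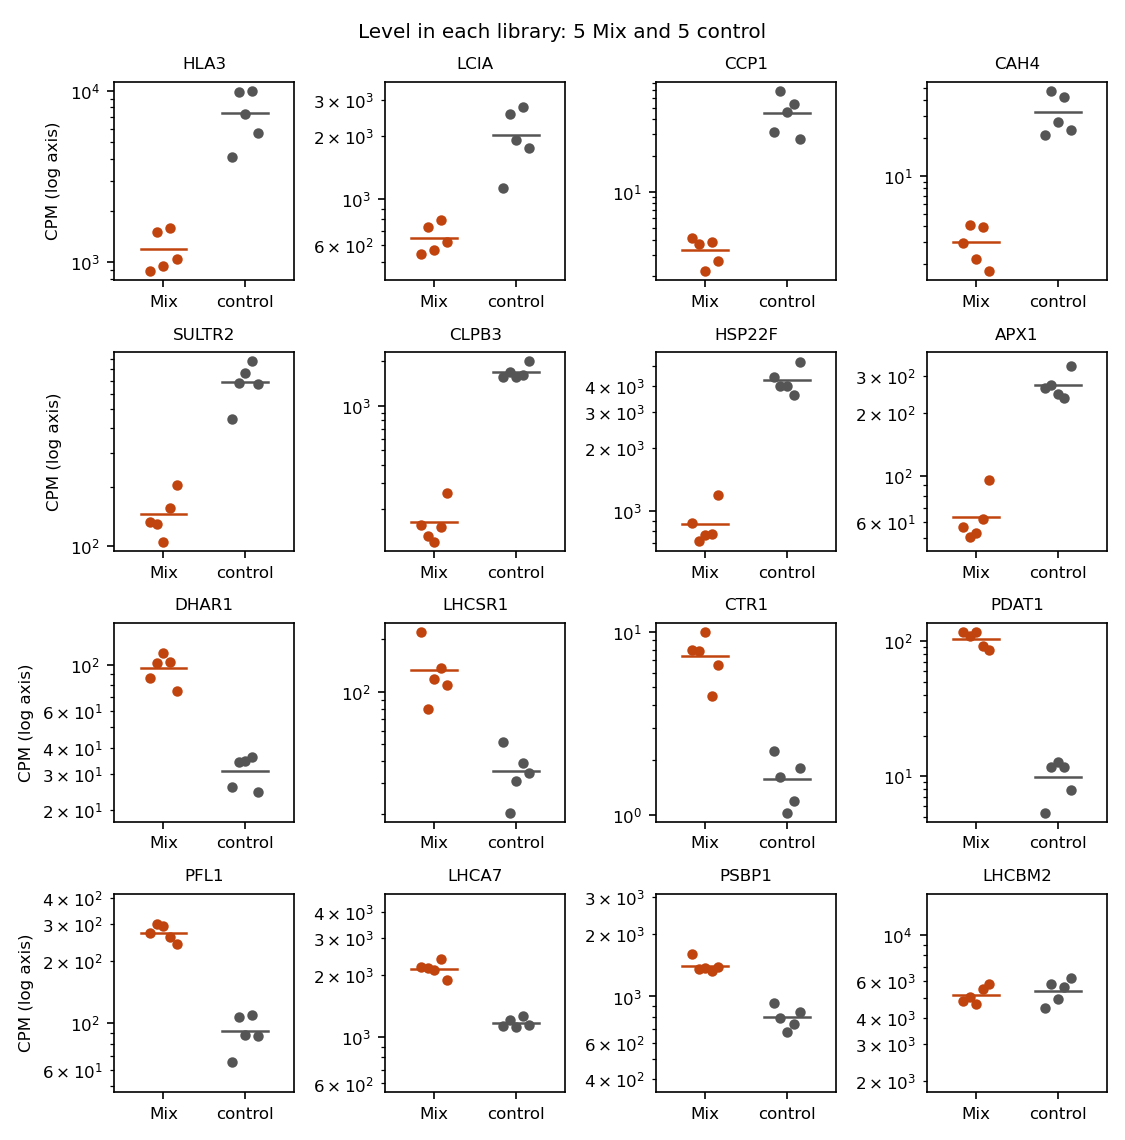
CPM of 16 loci in each library on a log axis, with the 5 Mix libraries left of the 5 controls in each panel and a line at the group mean. Mix and control points do not overlap in any panel except LHCBM2, with 4652 to 5791 CPM in Mix and 4469 to 6192 CPM in controls.

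Rubisco and Calvin cycle genes moved the other way and by less. Of 11 tested, 7 rose and 1 fell, with a median change of 0.36, against 30.9% of all genes that rose. RPI1 (Cre03g187450), ribose-5-phosphate isomerase, had the largest rise, with 313 to 384 CPM in Mix and 144 to 197 CPM in controls (log2 fold change 1.00, SE 0.12, edgeR adjusted p = 9.34e-09). RBCS2 (Cre02g120150), a small subunit of Rubisco, had 8397, 9065, 7890, 9072 and 8680 CPM in Mix and 4384, 6752, 7815, 7434 and 6364 CPM in controls. All Mix libraries were above all controls, by a margin that was narrow for the closest pair (0.40, SE 0.12); RBCS1 and RBCS2 are near-identical, and reads could be split between them. The member that fell was EPYC1 (Cre10g436550), the linker that gathers Rubisco in the pyrenoid, with 4858 ± 785 CPM in Mix and 7605 ± 1981 CPM in controls (-0.65, SE 0.13). SBP1 (Cre03g185550), sedoheptulose-bisphosphatase, averaged 5313 CPM in Mix and 4609 CPM in controls and did not pass (0.21, edgeR adjusted p = 0.0913). It passed without control library 4 (0.29), with upper-quartile factors (0.23), on library totals alone (0.34) and with the replicate block (0.21). With control library 1 as the TMM reference it passed too (0.48).

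The light-harvesting and photosystem genes rose together, by less than 2-fold. In the antenna of photosystem I all 6 tested members of 9 listed rose (median 0.54), as did all 6 of 9 in the photosystem I core (0.45) and all 3 of 5 in photosystem II (0.66). Of all genes 30.9% rose. LHCA7 (Cre16g687900), an antenna protein of photosystem I, had 2186, 2152, 2096, 2373 and 1878 CPM in Mix and 1130, 1211, 1120, 1269 and 1141 CPM in controls. The groups lay well apart with a change of 0.86 (SE 0.08, edgeR adjusted p = 9.72e-11). PSBP1 (Cre12g550850), a subunit of the oxygen-evolving complex, averaged 1408 ± 112 CPM in Mix and 795 ± 99.2 CPM in controls (0.82, SE 0.09). PSAE (Cre10g420350), on the electron-accepting side of photosystem I, averaged 793 ± 52.6 CPM in Mix and 499 ± 33.5 CPM in controls (0.67, SE 0.08). The smallest rise of these lists was that of PSAF (Cre09g412100), the docking site of plastocyanin, at 0.20; it passed with all libraries in the fit and not with Mix and control libraries alone (adjusted p = 0.122), nor without Mix library 4 or control library 3.

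The rises of these 3 lists lay between 0.20 (PSAF) and 0.86 (LHCA7), a range in which scaling matters; under each of the 5 scalings tried all 15 members rose, with list medians no smaller than those given. The photosystem II antenna list, which also holds the minor antenna gene LHCB4, was less uniform. Of 6 tested, 3 rose (LHCB4, LHCBM7 and LHCBM4), 1 fell and 2 did not pass. Of all genes 30.9% rose and 37.5% fell. Without control library 1, 2 rose. LHCBM4 (Cre06g283950) passed narrowly (0.21, edgeR adjusted p = 0.0496). Its call was lost without Mix library 4 or 5, without control library 1 or 3 and with Mix and control libraries alone. LHCB4 (Cre17g720250), the minor antenna CP29, rose by 0.72 with 2425 to 2994 CPM in Mix and 1474 to 1671 CPM in controls. LHCBM7 (Cre12g548950) averaged 5561 CPM in Mix and 4415 CPM in controls (0.33, SE 0.11, a call lost with Mix and control libraries alone), while LHCBM2 (Cre12g548400), which encodes the same protein or nearly so, averaged 5145 ± 477 CPM in Mix and 5411 ± 701 CPM in controls (-0.07, adjusted p = 0.553). LHCBM9 (Cre06g284200), a trimer subunit known to rise in nutrient stress, was at 232 ± 48.3 CPM in Mix and 359 ± 102 CPM in controls (-0.63), a call lost with control library 1 as the TMM reference (-0.37, adjusted p = 0.102). Reads of these near-identical genes may be split between them.

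Of electron transport and ATP synthase genes all 4 tested of 8 rose: FNR1 (Cre11g476750), which reduces NADP, by 0.50, ATPC (Cre06g259900) by 0.34 and ATPG (Cre11g481450) by 0.28 as subunits of the ATP synthase, and CYC6. Of all genes 30.9% rose. The ATPG call was lost with Mix and control libraries alone and without Mix library 4 or control library 5. CYC6 (Cre16g651050) encodes the cytochrome c6 that replaces plastocyanin when copper is short. It had 2.29, 3.04, 1.4, 0.675 and 2.60 CPM in Mix and 0.198, 0.0438, 0, 0.424 and 0.563 CPM in controls, a low level in both groups. The groups did not overlap (3.09, SE 0.54, edgeR adjusted p = 1.13e-05), and the size of the fold rests on few counts in controls.

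Among photoprotection genes LHCSR1 (Cre08g365900), which dissipates excess light energy, had 220, 79.3, 118, 136 and 109 CPM in Mix and 51.6, 20.3, 30.9, 39.2 and 34.4 CPM in controls. Library 1 was the highest and library 2 the lowest in both groups, and no Mix library was as low as any control (1.91, SE 0.34, edgeR adjusted p = 1.66e-05). PSBS1 (Cre01g016600) and PSBS2 (Cre01g016750), near-identical genes that act early in high light, averaged 20.9 and 10.9 CPM in Mix and 22.5 and 8.14 CPM in controls and did not pass (-0.11 and 0.41). The PSBS2 difference passed without Mix library 3 (0.49), control library 1 (0.59) or control library 5 (0.51). With control library 1 as the TMM reference it passed too (0.63).

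In tetrapyrrole synthesis, the pathway to chlorophyll and haem, 7 of 16 tested genes rose and 3 fell, against 30.9% and 37.5% of all genes. Over the 5 scalings tried 5 to 9 rose and 2 to 3 fell. Without control library 1, 8 rose, and the median was 0.69 in place of 0.29. The calls of GSA1 (Cre03g158000, 0.80) and PBGD1 (Cre16g663900, 0.56) were lost on library totals alone. Both were also lost without Mix library 1, 3 or 4 and without control library 2, 3, 4 or 5. GTR1 (Cre07g342150), glutamyl-tRNA reductase at the entry of the pathway, had 594 to 697 CPM in Mix and 275 to 294 CPM in controls (1.17, SE 0.09, edgeR adjusted p = 1.25e-12), and CPX1 (Cre02g085450), coproporphyrinogen oxidase, which is also a copper-responsive gene, averaged 24.1 CPM in Mix and 10.4 CPM in controls (1.2). Of the chlorophyll branch CHLM (Cre12g498550), a methyltransferase, fell to 630 ± 109 CPM in Mix against 1185 ± 225 CPM in controls (-0.91, SE 0.13). CTH1 (Cre12g510050), a subunit of the cyclase, was at 542 CPM in Mix and 638 CPM in controls (-0.24), with all Mix libraries below all controls, but was at 0.01 with control library 1 as the TMM reference, and the call was lost without Mix library 2. The branch did not move as one. CAO1 (Cre01g043350) fell too (-0.86), while DVR1 (Cre01g042800) rose (0.61). CHLD (0.18), CHLI1 (0.20), CHLI2 (0.11), CHLG (0.39) and GUN4 (-0.92) did not pass. CHLG passed as higher without control library 1 (0.64) and with it as the TMM reference (0.60). In carotenoid synthesis 3 of 5 rose and 1 fell, against 30.9% and 37.5% of all genes. Over the 5 scalings tried 2 to 4 rose. The call of ZDS1 (Cre07g314150, 0.70) was lost on library totals alone and with Mix and control libraries alone. It was also lost without Mix library 1 and without control library 2 or 4. DXR1 (Cre12g546050), of the plastid isoprenoid pathway, averaged 45.4 ± 8.12 CPM in Mix and 21 ± 3.76 CPM in controls (1.11, SE 0.19), and PDS1 (Cre12g509650), phytoene desaturase, rose by 0.81. CVDE1 (Cre04g221550), the violaxanthin de-epoxidase of the xanthophyll cycle, had 28.8, 27.8, 26.6, 25.5 and 22.9 CPM in Mix and 114, 146, 145, 123 and 123 CPM in controls. This was a 4.95-fold lower level with no overlap and a narrow spread in both groups (-2.31, SE 0.12, edgeR adjusted p = 6.16e-16). ZEP1 (Cre02g082550), which runs the cycle in the opposite direction, averaged 428 CPM in Mix and 419 CPM in controls and did not pass (0.03, edgeR adjusted p = 0.72). It passed as higher with control library 1 as the TMM reference (0.28).

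Antioxidant genes moved in both directions: 7 of 16 tested rose and 7 fell, against 30.9% and 37.5% of all genes. DHAR1 (Cre10g456750), which regenerates ascorbate, had 86.7, 102, 114, 103 and 75 CPM in Mix and 25.9, 34, 34.4, 35.9 and 24.5 CPM in controls. It was 3.11-fold higher with no overlap (1.64, SE 0.12, edgeR adjusted p = 1.09e-12). GPX5 (Cre10g458450), a glutathione peroxidase homologue known to respond to singlet oxygen, averaged 1003 ± 63.1 CPM in Mix and 527 ± 83.9 CPM in controls (0.93, SE 0.09). The largest fall was that of APX1 (Cre02g087700), an ascorbate peroxidase, with 56.9, 50.8, 53, 62 and 95 CPM in Mix and 263, 274, 248, 237 and 336 CPM in controls. The highest Mix library was below the lowest control (-2.10, SE 0.17). FSD1 (Cre10g436050), the iron superoxide dismutase of the chloroplast, fell to 564 ± 88.1 CPM in Mix against 1665 ± 193 CPM in controls (-1.56, SE 0.11). VTC2 (Cre13g588150), an enzyme of ascorbate synthesis chosen after its values were seen, fell to 46.7 ± 3.66 CPM in Mix against 122 ± 21.5 CPM in controls (-1.39).

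The largest changes among chaperones were falls of chloroplast stress proteins, while other chloroplast chaperones rose. The list of heat shock and chloroplast chaperones had 4 rises and 6 falls in 12 tested, against 30.9% and 37.5% of all genes. CLPB3 (Cre02g090850), a disaggregase of the chloroplast, had 155, 131, 120, 152 and 257 CPM in Mix and 1563, 1700, 1577, 1615 and 2002 CPM in controls. It was 10.4-fold lower with no overlap, and library 5 was the highest in both groups (-3.37, SE 0.19, edgeR adjusted p = 4.36e-15). The small heat shock proteins of the chloroplast HSP22E (Cre14g617450) and HSP22F (Cre14g617400) fell to 2173 ± 264 and 867 ± 193 CPM in Mix, against 6620 ± 606 and 4244 ± 597 CPM in controls. Their changes were -1.61 (SE 0.11) and -2.29 (SE 0.14), although the 2 genes are alike and may share reads. The other 3 falls were also of chloroplast proteins, chosen after their values were seen because they complete the falls: VIPP2 (Cre11g468050), a membrane-protecting protein induced by chloroplast stress (-2.07), VIPP1 (Cre13g583550), its relative (-0.68), and HSP70B (Cre06g250100), the chloroplast HSP70 (-0.62). The 4 rises were of HSP90C (Cre12g514850), the chloroplast HSP90, at 20.1 CPM in Mix and 12 CPM in controls (0.73), CPN60B1 (Cre17g741450), a chloroplast chaperonin subunit (0.69, a call lost without Mix library 1 or 3 and without control library 1 or 5), HSF1 (Cre07g354500), the heat shock regulator (0.67), and HSP70A (Cre08g372100), the cytosolic HSP70 (0.63, a call lost with Mix and control libraries alone). HSP90A (Cre09g386750), the cytosolic HSP90, averaged 384 CPM in Mix and 385 CPM in controls and did not pass (adjusted p = 0.982). Of the ER chaperones CRT2 (Cre01g038400), calreticulin, which binds calcium, rose to 399 ± 90.6 CPM in Mix against 222 ± 84.9 CPM in controls with overlap of the groups (0.84, SE 0.17), and BIP2 (Cre02g080600) averaged 66.8 CPM in Mix and 74.5 CPM in controls without passing (adjusted p = 0.599). The 1 tested calcium-binding gene, VFL2 (Cre11g468450), which encodes centrin of the basal body, had 197 to 227 CPM in Mix and 54 to 75.3 CPM in controls (1.62, SE 0.09).

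CTR1 (Cre13g570600), a copper transporter, had 8.01, 7.84, 10, 4.47 and 6.64 CPM in Mix and 2.25, 1.62, 1.03, 1.19 and 1.81 CPM in controls, 4.5-fold higher with no overlap (2.17, SE 0.21, edgeR adjusted p = 3.03e-10). With CYC6 and CPX1 it makes 3 rises among 4 tested genes of the copper and zinc list, against 30.9% of all genes that rose. The fall was of ZRT1 (Cre07g351950), a zinc transporter induced by zinc deficiency, at 16.8 ± 1.4 CPM in Mix and 69.8 ± 23.3 CPM in controls (-2.05, SE 0.17). Of 8 listed iron genes 2 could be tested: FRE1 (Cre04g227400), a ferrireductase, averaged 2.62 CPM in Mix and 1.70 CPM in controls (0.63, not passing with Mix and control libraries alone), and IRT2 (Cre12g530350), a transporter of the ZIP family, 0.459 CPM in Mix and 1.75 CPM in controls (-1.86).

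Of 4 tested sulfur genes 3 fell and none (0) rose, against 37.5% of all genes that fell. SULTR2 (Cre17g723350), a sulfate transporter, had 132, 129, 105, 156 and 205 CPM in Mix and 447, 679, 766, 879 and 671 CPM in controls (-2.24, SE 0.18, edgeR adjusted p = 7.76e-12). SLT1 (Cre12g502600), a second transporter, had 14.3 to 31 CPM in Mix and 82.8 to 233 CPM in controls (-2.79, SE 0.24), and the arylsulfatase ARS1 (Cre16g671350) had 0.258 to 0.416 CPM in Mix and 0.672 to 1.66 CPM in controls (-1.67). For all of these the groups did not overlap. ATS1 (Cre03g203850), ATP sulfurylase, averaged 2988 CPM in Mix and 2781 CPM in controls and did not pass (0.10, adjusted p = 0.394).

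Of 4 tested phosphate genes 3 fell: PTB4 (Cre02g144750), a phosphate transporter, to 0.905 ± 0.233 CPM in Mix against 5.04 ± 2.48 CPM in controls (-2.49), PHOX (Cre08g359300), an alkaline phosphatase, to 0.154 CPM in Mix against 1.70 CPM in controls (-3.29), and PSR1 (Cre12g495100), the regulator of this response, to 3.82 CPM in Mix against 6.57 CPM in controls (-0.81). Of all genes 37.5% fell. PHOX and PTB4 averaged under 1 CPM in Mix, where depth limits the size of the fold. The other member, PHO5 (Cre04g216700), averaged 7.45 CPM in Mix and 6.05 CPM in controls and did not pass (0.30, edgeR adjusted p = 0.109). Its difference passed as higher when control library 1 was the TMM reference (0.55) or when only totals set the scale (0.40). Of 8 tested nitrogen genes 4 fell and none (0) rose, with a median of -0.73. Without control library 1 the count was 3 falls and 1 rise, with a median of -0.33: AMT4 (Cre13g569850), an ammonium transporter, lost its call (-0.96 with all libraries, -0.41 without that one) and GLN1 gained one. NII1 (Cre09g410750), nitrite reductase, had 0.858, 0.206, 0.669, 0.416 and 0.849 CPM in Mix and 10.2, 3.76, 4.43, 2.96 and 5.44 CPM in controls (-3.19, SE 0.36). GSN1 (Cre13g592200), the NADH-dependent glutamate synthase, fell to 16.8 ± 6.70 CPM in Mix against 130 ± 25.4 CPM in controls (-2.95, SE 0.26), while its ferredoxin-dependent counterpart GSF1 (Cre12g514050) fell to 232 CPM in Mix against 354 CPM in controls (-0.61). GLN1 (Cre02g113200), a glutamine synthetase, averaged 89.9 CPM in Mix and 70.2 CPM in controls and did not pass (0.35, adjusted p = 0.0812); without control library 1 it was higher in Mix by 0.65 (adjusted p = 4.36e-05).

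Among genes of storage metabolism PDAT1 (Cre02g106400), which makes triacylglycerol from membrane lipids, had 117, 110, 117, 92.1 and 86.5 CPM in Mix and 5.37, 11.7, 12.7, 11.6 and 7.88 CPM in controls. It was 10.7-fold higher with no overlap (3.42, SE 0.16, edgeR adjusted p = 2.27e-16). DGTT1 (Cre12g557750), an acyltransferase that makes triacylglycerol from acyl-CoA, moved the opposite way, with 2.86 to 3.41 CPM in Mix and 11.6 to 18.8 CPM in controls (-2.18, SE 0.16). DGTT3 (Cre06g310200), of the same family, fell to 304 CPM in Mix against 517 CPM in controls (-0.77), and STA2 (Cre17g721500), the granule-bound starch synthase, to 3094 CPM in Mix against 3853 CPM in controls (-0.32), a call lost with control library 1 as the TMM reference. In all 3 of 7 rose and 4 fell, against 30.9% and 37.5% of all genes.

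Of the fermentation genes, PFL1 (Cre01g044800), pyruvate formate lyase, averaged 273 ± 24.8 CPM in Mix and 91.5 ± 18.2 CPM in controls (1.58, SE 0.14, edgeR adjusted p = 6.46e-11), and PAT2 (Cre09g396650), phosphate acetyltransferase, 16 ± 2.21 CPM in Mix and 3.02 ± 1.08 CPM in controls (2.42, SE 0.17). The hydrogenase assembly genes HYDG1 (Cre06g296700) and HYDEF1 (Cre06g296750) fell by 2.66 and 2.64 on the log2 scale, HYDG1 to 10.1 to 20.6 CPM in Mix against 68.5 to 137 CPM in controls. These are neighbouring genes that could share reads. The alternative oxidase AOX1 (Cre09g395950), which bypasses part of the mitochondrial electron chain, rose to 233 ± 19.4 CPM in Mix against 93.3 ± 21.1 CPM in controls (1.32), and the plastid oxidase PTOX1 (Cre07g350750) to 2199 ± 121 CPM in Mix against 1040 ± 229 CPM in controls (1.08). AOX2 (Cre03g169550), at a low level, fell, with 0.660 CPM in Mix and 1.66 CPM in controls (-1.28).

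Of 4 tested acetate and gluconeogenesis genes 3 fell and 1 rose, against 37.5% and 30.9% of all genes. Over the 5 scalings tried 1 to 3 fell. ACS3 (Cre07g353450), an acetyl-CoA synthetase, averaged 2.67 CPM in Mix and 8.68 CPM in controls (-1.68), and CIS2 (Cre03g149250), a citrate synthase of the glyoxylate cycle, 1349 CPM in Mix and 1837 CPM in controls (-0.45, a call lost with control library 1 as the TMM reference). ICL1 (Cre06g282800), isocitrate lyase, was lower in Mix (-0.67), but the call was lost in 7 alternatives, among them without Mix library 1 or 5 and without control library 2 or 3. PCK1 (Cre02g141400), PEP carboxykinase, had 350, 671, 733, 551 and 336 CPM in Mix and 199, 502, 449, 405 and 235 CPM in controls. Libraries 2, 3 and 4 were the high ones in both groups, the groups overlapped, and the rise (0.56, SE 0.25, edgeR adjusted p = 0.0455) was lost in 9 alternatives, among them without Mix library 2, 3 or 4 and without control library 1, 4 or 5.

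Genes of cilia, the cell cycle and light sensing were mixed. Of 10 tested intraflagellar transport genes 3 rose and 5 fell, against 30.9% and 37.5% of all genes. The retrograde motor DHC1b (Cre06g250300) had 64.6 to 73.3 CPM in Mix and 16.6 to 41.4 CPM in controls (1.24, SE 0.16), and the kinesin FLA10 (Cre17g730950) 86.2 to 101 CPM in Mix and 36.5 to 51.5 CPM in controls (1.08, SE 0.09). The third rise was of the train subunit IFT139 (Cre06g268800), and the largest fall that of IFT80 (Cre03g204150), at 0.947 CPM in Mix and 2.89 CPM in controls (-1.60). TUA1 (Cre03g190950), alpha-tubulin, averaged 3143 CPM in Mix and 2627 CPM in controls (0.26); it passed narrowly (adjusted p = 0.0331), and the call was lost in 6 alternatives, among them without Mix library 1 or 5 and without control library 1 or 3. TUB2 (Cre12g549550), beta-tubulin, averaged 1585 CPM in Mix and 1327 CPM in controls and did not pass (0.26, adjusted p = 0.086); it passed without Mix library 2 (0.35) or control library 4 (0.34).

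Of 7 tested cell cycle genes 2 rose and 2 fell, against 30.9% and 37.5% of all genes, with a median of -0.05. Without control library 1, 3 rose and the median was 0.82. PCNA (Cre12g515850), the replication clamp, had 27.5, 22.8, 19.2, 13.3 and 18.9 CPM in Mix and 10.9, 4.24, 2.69, 1.44 and 6.51 CPM in controls (1.92, SE 0.27), with library 1 highest and library 4 lowest in both groups. RIR1 (Cre12g492950), ribonucleotide reductase, which also serves replication, fell to 3.67 CPM in Mix against 10.1 CPM in controls (-1.47). CDKA1 (Cre10g465900), a cyclin-dependent kinase, fell to 13.6 ± 1.04 CPM in Mix against 32.4 ± 5.54 CPM in controls (-1.25), and MAT3 (Cre06g255450), the retinoblastoma homologue, rose by 0.92. Of 5 photoreceptors 3 fell and 1 rose, against 37.5% and 30.9% of all genes. The channelrhodopsin ChR1 (Cre14g611300) fell to 27.4 ± 1.35 CPM in Mix against 92.6 ± 22.1 CPM in controls (-1.76, SE 0.13), phototropin PHOT1 (Cre03g199000) by 0.63, and ChR2 (Cre02g085257) to 0.347 CPM in Mix against 0.721 CPM in controls (-1.16), a call lost without control library 1 (-0.58). UVR8 (Cre05g230600), the UV-B receptor, rose to 15.2 CPM in Mix against 8.23 CPM in controls (0.88), and the plant-type cryptochrome CPH1 (Cre06g295200) averaged 144 CPM in Mix and 177 CPM in controls (-0.30, adjusted p = 0.0567), a difference that passed without Mix library 4 (-0.34), control library 1 (-0.45) or control library 5 (-0.35).

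The largest changes outside the lists were in genes without a name in the sources used. Cre17g697750 had 32.3, 36.1, 32.8, 33.1 and 20.8 CPM in Mix and 0.198, 1.23, 0.395, 0.508 and 1.00 CPM in controls (log2 fold change 5.50, SE 0.26, edgeR adjusted p = 1.38e-16), and Cre12g556700 2.06 to 4.32 CPM in Mix and 0 to 0.169 CPM in controls (5.30). The largest falls were those of g9574, at 0 to 0.26 CPM in Mix and 2.01 to 5.30 CPM in controls (-5.26), and Cre12g523400, at 0 to 0.155 CPM in Mix and 1.30 to 3.98 CPM in controls (-5.22). In the last 3 genes 1 group is close to no counts, so the size of the fold depends on the prior count of the fit. By position, neighbouring genes in the order of the RefSeq annotation moved in the same direction in 62.5% of 2713 pairs with both genes called. The share was 52.4% for pairs 2 genes apart and 53% for pairs 20 genes apart. Whether genes of a pair overlap and share reads was not tested.

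The single metals show where the mixture stood among them. Mix differed from Tm in 150 genes (1.17%), 25 higher (0.195%) and 125 lower (0.977%) in Mix. It differed from Y in 4551 (35.6%), 2091 higher (16.3%) and 2460 lower (19.2%) in Mix, a balance that turned to 2659 higher and 2020 lower with RLE scaling and to 3276 higher and 1585 lower with control library 1 as the TMM reference. It differed from Ce in 10079 (78.8%), 4339 higher (33.9%) and 5740 lower (44.9%), and here too the balance followed the scaling, with 2532 higher and 8042 lower on library totals alone and 5096 higher and 4805 lower with control library 1 as the TMM reference. Same-numbered Mix and Tm libraries deviated together, and with the replicate number as a block 288 genes differed from Tm, 82 higher and 206 lower in Mix. Without Mix library 3 or 4 the count was 95 or 98. Of the 168 tested loci of the lists 2 differed from Tm. PSBS1 exceeded its Tm level in Mix, at 20.9 ± 1.50 CPM against 13.3 ± 2.24 CPM in Tm (0.65, SE 0.16, edgeR adjusted p = 0.0349), and MDAR1 (Cre17g712100), monodehydroascorbate reductase, was lower, at 13.7 ± 2.82 CPM in Mix against 25 ± 3.23 CPM in Tm (-0.86, SE 0.14, edgeR adjusted p = 0.000471), while controls were at 6.44 ± 0.627 CPM. All these comparisons share the Mix libraries, and the number of genes past the threshold also follows the spread within each group.

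Against Y and Ce most tested loci of the lists differed. Against Y, 37 of 168 were higher and 54 lower in Mix, 54.2% in all, where 35.6% of all genes differed. Against Ce, 70 were higher and 58 lower, 76.2% in all, where 78.8% of all genes differed. The loci that follow are examples. HLA3 was higher in Mix, with 1195 ± 321 CPM, than in Y, with 457 ± 116 CPM (1.39, adjusted p = 3.46e-05), and not detectably different from Ce, with 888 ± 208 CPM (0.43, SE 0.23, adjusted p = 0.0821). PFL1 stood at 273 CPM in Mix, 536 CPM in Y and 91 CPM in Ce, and both differences to Mix passed the test (-0.98 to Y and 1.58 to Ce). CRT2 was lower in Mix, at 399 CPM, than in Y, at 988 CPM, and Ce, at 1059 CPM, with differences of -1.31 and -1.41 (SE 0.17 each). PCK1, at 528 ± 181 CPM in Mix, exceeded its level in Y, at 98.9 ± 23.8 CPM (2.42), and in Ce, at 32.3 ± 8.56 CPM (4.03). NII1 fell in Mix relative to controls, while the level in Ce was 24.6 ± 6.90 CPM against 0.600 ± 0.284 CPM in Mix (-5.35, SE 0.35). PDAT1 was at 104 ± 14.2 CPM in Mix and 111 ± 7.27 CPM in Y without passing (-0.09, SE 0.14, adjusted p = 0.657), and at 36.4 ± 3.59 CPM in Ce (1.52, adjusted p = 5.55e-10). FSD1 averaged 564 ± 88.1 CPM in Mix, 570 ± 81.2 CPM in Tm, 463 ± 27.8 CPM in Y and 507 ± 39.1 CPM in Ce; of these differences the one to Y passed (0.28, adjusted p = 0.0388).

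**Figure D3:**
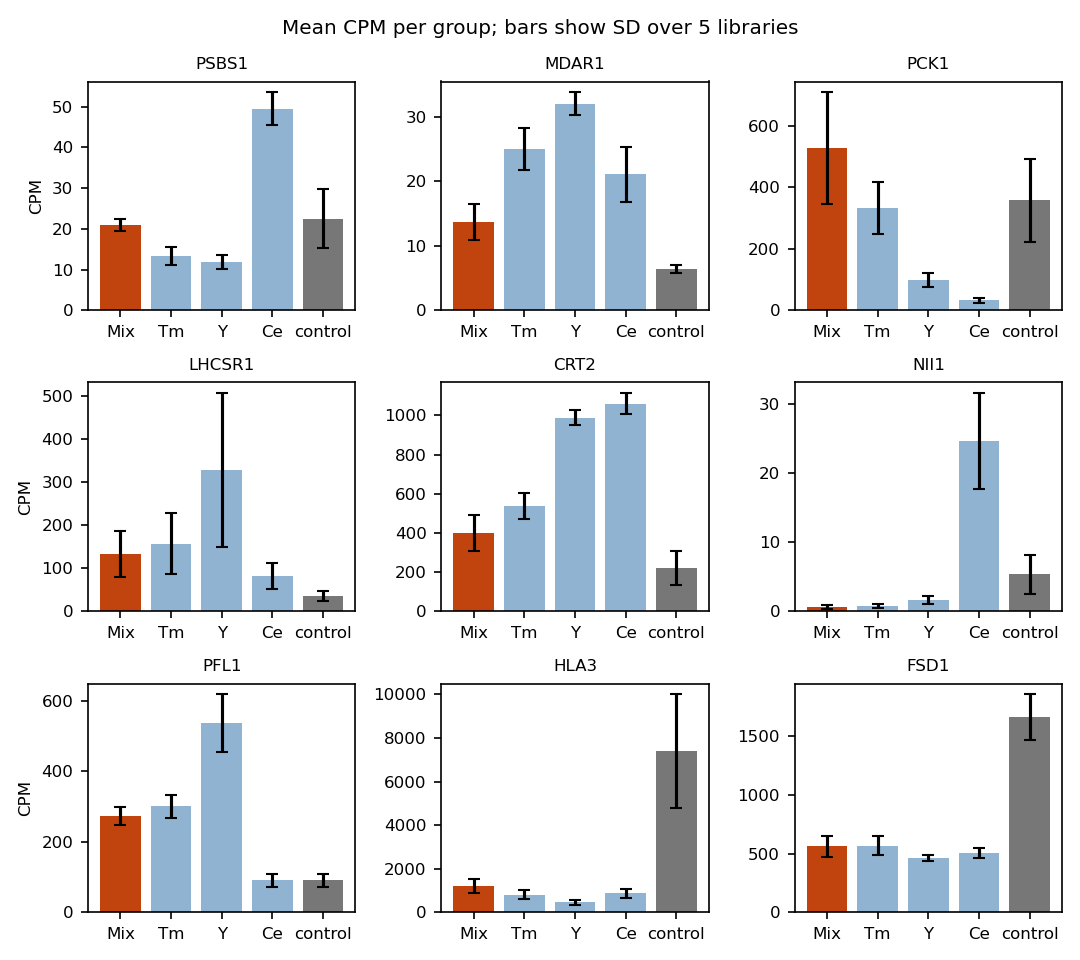
Mean CPM of 9 loci in Mix, Tm, Y, Ce and control, with bars from 0 and error bars of 1 SD over 5 libraries. HLA3 and FSD1 are lower in all exposed groups than in controls, at 1195 and 564 CPM in Mix against 7391 and 1665 CPM in controls, while NII1 is high in Ce alone among the exposed groups.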

How the data were processed

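The deposited values are raw read counts, given by the authors as whole numbers for each transcript line. The submitters' processing notes name the tools Trim Galore (0.3.7), TopHat2 (2.0.14) and SAMtools (1.2). The counting program, strand setting, build and annotation were not given in the sources used here; overlapping and antisense genes may share reads. In 34 cells the text "PAC:" was stripped from the number, and 1502 IDs on 2 lines each were kept as deposited. Groups were taken from sample titles.

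All 25 libraries entered 1 fit of edgeR 4.0.16 in R 4.3.3 (quasi-likelihood test, robust, TMM, filterByExpr by group), which tested 12796 of 19526 lines and called genes at an adjusted p under 0.05. CPM use TMM-scaled totals. SE is the absolute log2 fold change divided by the square root of F. The code was tested on simulated data. DESeq2 1.42.0 and limma 3.58.1 served as alternatives. Depth limits genes under about 1 CPM.

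Members and lists were chosen with earlier results of these data known. Named genes are, per list, the largest called rise and fall and then the most abundant tested members up to 4; lists of up to 5 could be named in full; not all named genes are described. Genes named beyond this were chosen after their values were seen. Only 2 unlisted rises and 2 falls are named, since no source names them. List loci were matched by exact ID, and 2 loci of doubtful assignment were dropped after their values were seen. The reference (assembly Chlamydomonas_reinhardtii_v5.5) holds 0 symbols other than locus tags and served for gene order only. Of same-numbered libraries, the deviations from group means correlated at 0.1928 to 0.4403 between Mix and Tm, all over 0.1. This was taken as a hint of pairing, from the data and not the labels. Between Mix and control the correlations ran from 0.09078 to 0.5585, not all over 0.1. The main fit holds no pairing, also for Mix against Tm, and the block by replicate number was run as an alternative only. No 2 Mix or control libraries were alike within sampling noise.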

Additional observations from a re-analysis of the deposited data

Results flagged for a closer look

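For genes picked by the naming rule or as the largest unlisted changes, 206 groups of 5 libraries were examined. Of these, 10 (4.85%) held a library far from the other 4, and chance gives about 1 in 20. Mix library 5 was high for CLPB3 (257 CPM), APX1 (95 CPM) and BIP2 (122 CPM) and low for Cre17g697750 (20.8 CPM). Mix library 1 was high for PSBP1 (1604 CPM) and low for HYDG1 (10.1 CPM). Control library 1 was high for PSR1 (11.9 CPM) and RIR1 (18.8 CPM). Control library 5 was high for HSP22E (7664 CPM), and control library 4 stood apart for PSBX (100 CPM).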

How the results depend on the processing

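The counts of genes that rose and fell in Mix against control stayed within 1.5 times of 3951 and 4803 under every alternative run. Leaving out 1 library gave 3821 to 4204 rises and 4599 to 4864 falls. With Mix and control libraries alone 3082 rose and 3975 fell of 11081 tested, the fewest rises of any alternative. The main fit pools the spread of all groups, although the coefficient of variation was 32.09% in controls and 9.975% to 17.13% in exposed groups. Its SE and p-values may thus understate the spread of controls. The balance of rises and falls did not hold: the share of rises among calls was 45.1%, and 56.3% with control library 1 as the TMM reference. When a library was left out, the TMM reference was kept at Tm library 2. With the replicate block, 4161 rose and 4872 fell against control; each of the 5 Mix libraries correlated best with the control of its own number, but control libraries 2 and 3 correlated best with Mix library 4, so this is at most a hint from the data, not the design. Against Tm the count was 288 with the replicate block, and without 1 Mix library 95 to 160; against Y and Ce no alternative moved the total over 1.5 times, but the counts by direction did move: with control library 1 as the TMM reference, 3276 genes in place of 2091 were higher and 1585 in place of 2460 lower than in Y, and scaling by totals gave 2532 in place of 4339 higher than in Ce. Of 90 called genes picked by the naming rule or as the largest unlisted changes, 89 kept their sign under every alternative. Of these 90, 12 lost the call under at least 1. CTH1 changed sign, to 0.01, with control library 1 as the TMM reference, and the cause was not tested. Genes named beyond the rule are outside these counts. Among them the calls of AMT4, CPN60B1, HSP70A, TPI1, LHCBM4, GSA1, PBGD1 and ZDS1 were lost too. Of 2161 values of genes within the counts under alternatives, 38 lost a call and 39 gained one. Of all 168 tested loci of the lists, 27 lost their call under at least 1 alternative. Depth limits genes near or under 1 CPM, and control library 1, with a voom weight of 0.07868, limits the controls. Control libraries 4 and 5 had weights of 0.3607 and 0.3683.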
